A study of Mus musculus with 27 samples.

Results

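The clustered histone genes of the mouse were followed through the first days of neuronal reprogramming of embryonic fibroblasts. Members were the rows of the deposited gene table annotated as protein coding whose names begin with Hist1h, Hist2h, Hist3h or Hist4h, where the digit names the chromosomal cluster. There were 67 members among the 54532 genes of the table. They comprised 6 linker H1, 18 H2A, 18 H2B, 12 H3 and 13 H4 genes. In the GRCm38 coordinates of the table, 54 lay in cluster 1 on chromosome 13, 10 in cluster 2 on chromosome 3, 2 in cluster 3 on chromosome 11 and 1, Hist4h4, on chromosome 6.

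Mouse embryonic fibroblasts (MEFs) of WT, Per1-/- (B6.129-Per1tm1Drw/J) and Per2-/- (B6.129-Per2tm1Drw/J) genotype were studied on days 0, 2 and 4 with 3 replicates each, giving 27 libraries of poly(A)-selected RNA in 9 groups. The MEFs came from pooled mid-gestation embryos without head and heart, of undetermined sex. All groups, day 0 included, had received lentiviruses for the reprogramming factors and for the doxycycline-dependent activator that drives them on day -3. After the day 0 harvest, serum medium was replaced by serum-free N3 medium with doxycycline. By the study's protocol the cells had been replated on day -1. Induction of the factors, the change of medium and the time since replating therefore cannot be told apart in any comparison with day 0. Days 2 and 4 shared the induction and the medium and differed in the time spent under them and since replating. Libraries held 15815013 to 24264097 fragments assigned to genes. The 14 fibroblast markers examined, none at 0 in all libraries of a day, summed to 3787 to 6618 FPKM (fragments scaled to gene length and library depth) per library. The transcript of Per2 was higher in the libraries labelled Per2-/- (1.93 ± 0.068 FPKM, SD, n = 3) than in WT (0.894 ± 0.0709 FPKM) on day 0 (limma adjusted p = 0.00114). The difference was also called on day 2 and was not called on day 4 (limma adjusted p = 0.0191 and 0.223). By western blotting the study reported that PER1 protein was lost in Per1-/- MEFs and PER2 protein in Per2-/- MEFs. Protein was not analysed here. Gene-level values do not show which exons were read, so the higher transcript does not check the label of these groups. These groups are called the libraries labelled Per2-/- throughout. Per1 was 4.11 ± 0.866 FPKM in Per1-/- and 5.78 ± 0.479 FPKM in WT on day 0 (limma adjusted p = 0.771), so that this comparison did not check the Per1-/- label.

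Histone proteins package DNA into nucleosomes, each built from the core histones H2A, H2B, H3 and H4, with the linker histone H1 bound where DNA enters and leaves. The clustered genes supply most of the histones needed when DNA is copied, and their mRNAs usually end in a conserved stem-loop, bound by the stem-loop binding protein Slbp, in place of a poly(A) tail. Some members can also give polyadenylated transcripts, and most histone variants encoded outside the clusters use ordinary polyadenylated mRNAs. Because RNA was selected on poly-T beads, the values describe the transcripts that this selection recovered, and the part lost at selection was not measured.

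The stem-loop is shown first because it sets these mRNAs apart from others. The pattern GGNNCTTTTNAGNNCC was searched on the sense strand and found in an annotated GENCODE M21 transcript of 44 of the 67 members (65.7%) and of 72 of all 21901 protein-coding genes (0.329%). Its forms are printed as DNA, 5′ to 3′, with the pairing stem in capitals and the loop in lower case.
Form found in 26 members: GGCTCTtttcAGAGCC
Form found in 7 members: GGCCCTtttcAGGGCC
Form found in 6 members: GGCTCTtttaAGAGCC
Form found in 2 members: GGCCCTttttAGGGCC
Form found in 2 members: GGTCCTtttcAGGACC
Form found in 1 member: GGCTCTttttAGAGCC
Of these 44 members, 22 had an annotated transcript that ran more than 100 bases past the stem-loop. In the other 23 members the annotated transcripts held no match.

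Promoters of 61 members were matched in RefSeq (GRCm38.p6), and those of the member with the largest rise and of the pair with the largest falls are shown, 250 bases before to 50 after the start. Capitals mark the letters of the CCAAT box (CCAAT), the TATA box (TATAAA), the octamer (ATTTGCAT) and an E-box form (CAGCTG), on either strand.
Hist3h2ba promoter, chr11:58948661-58948960, plus strand: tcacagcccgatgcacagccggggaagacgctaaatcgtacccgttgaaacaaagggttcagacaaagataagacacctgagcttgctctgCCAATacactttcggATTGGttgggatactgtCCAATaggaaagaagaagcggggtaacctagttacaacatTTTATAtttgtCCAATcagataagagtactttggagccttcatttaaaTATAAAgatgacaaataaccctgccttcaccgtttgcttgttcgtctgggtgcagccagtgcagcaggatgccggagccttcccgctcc
Hist1h2ab promoter, chr13:23750838-23751137, plus strand: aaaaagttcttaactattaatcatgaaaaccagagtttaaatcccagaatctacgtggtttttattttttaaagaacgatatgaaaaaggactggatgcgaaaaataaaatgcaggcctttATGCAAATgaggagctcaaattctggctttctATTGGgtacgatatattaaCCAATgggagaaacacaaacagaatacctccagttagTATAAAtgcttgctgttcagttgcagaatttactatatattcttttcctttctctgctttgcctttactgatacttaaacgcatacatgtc
Hist1h3b promoter, chr13:23752095-23752394, plus strand: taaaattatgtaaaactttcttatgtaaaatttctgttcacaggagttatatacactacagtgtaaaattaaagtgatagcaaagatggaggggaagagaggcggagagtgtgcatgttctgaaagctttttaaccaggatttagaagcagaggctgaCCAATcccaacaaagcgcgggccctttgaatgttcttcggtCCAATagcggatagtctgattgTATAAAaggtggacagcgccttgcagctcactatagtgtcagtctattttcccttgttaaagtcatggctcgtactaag
CCAAT was present in 85.2% of member promoters and 37.4% of all 32851 promoters of this length. TATAAA was present in 57.4% and 13.6%. ATTTGCAT was present in 21.3% and 1.74%. CAGCTG was present in 11.5% and 16.3%. These matches describe the printed windows, and no use of the sites was measured.

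Levels differed widely among members. Hist1h1c (linker H1; ENSMUSG00000036181, chr13:23738808-23740367) and Hist1h2bc (H2B; ENSMUSG00000018102, chr13:23684199-23692908) had the highest levels, with means of 55.1 and 46.5 FPKM over the 27 libraries. These 2 genes held 54.2 to 77.5% of the summed member level. The next members by mean level were Hist1h4i at 6.45, Hist3h2ba at 5.73, Hist1h4h at 5.52, Hist1h4m at 3.62, Hist1h2bg at 3.05, Hist1h2ab at 2.98, Hist2h3c2 at 2.82 and Hist3h2a at 2.68 FPKM. A mean of at least 0.5 FPKM was reached by 30 members, which were tested with limma among 14932 genes. The mean just inside this limit was 0.529 FPKM (Hist1h1b) and the mean just outside was 0.463 FPKM (Hist1h3h). Of the tested members, 4 (Hist1h2bb, Hist1h3e, Hist1h4a and Hist1h4n) had means below 0.5 FPKM on both day 2 and day 4 and so passed through their day 0 level.

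The 37 members below the limit summed to 5.1 to 11.7 FPKM per library on day 0, 2.67 to 7.18 FPKM on day 2 and 4.11 to 9.54 FPKM on day 4. Of these, 7 were listed at 0 in all 27 libraries, namely Hist1h2aa, Hist1h2ba, Hist2h2aa1, Hist2h2aa2, Hist2h2bb, Hist2h3b and Hist2h3c1. For the 5 of them that lie in cluster 2, every 100-base window of the annotated transcripts was also present in another gene, so fragments from them may not have been assignable. A further 4, Hist1h1t, Hist1h2ap, Hist1h4b and Hist2h2ab, had fewer than 3 fragments in every library. Fragments from near-identical copies can be split or dropped in counting, and 10 of the 30 tested members shared at least 50% of their windows with other genes.

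**Figure D1:**
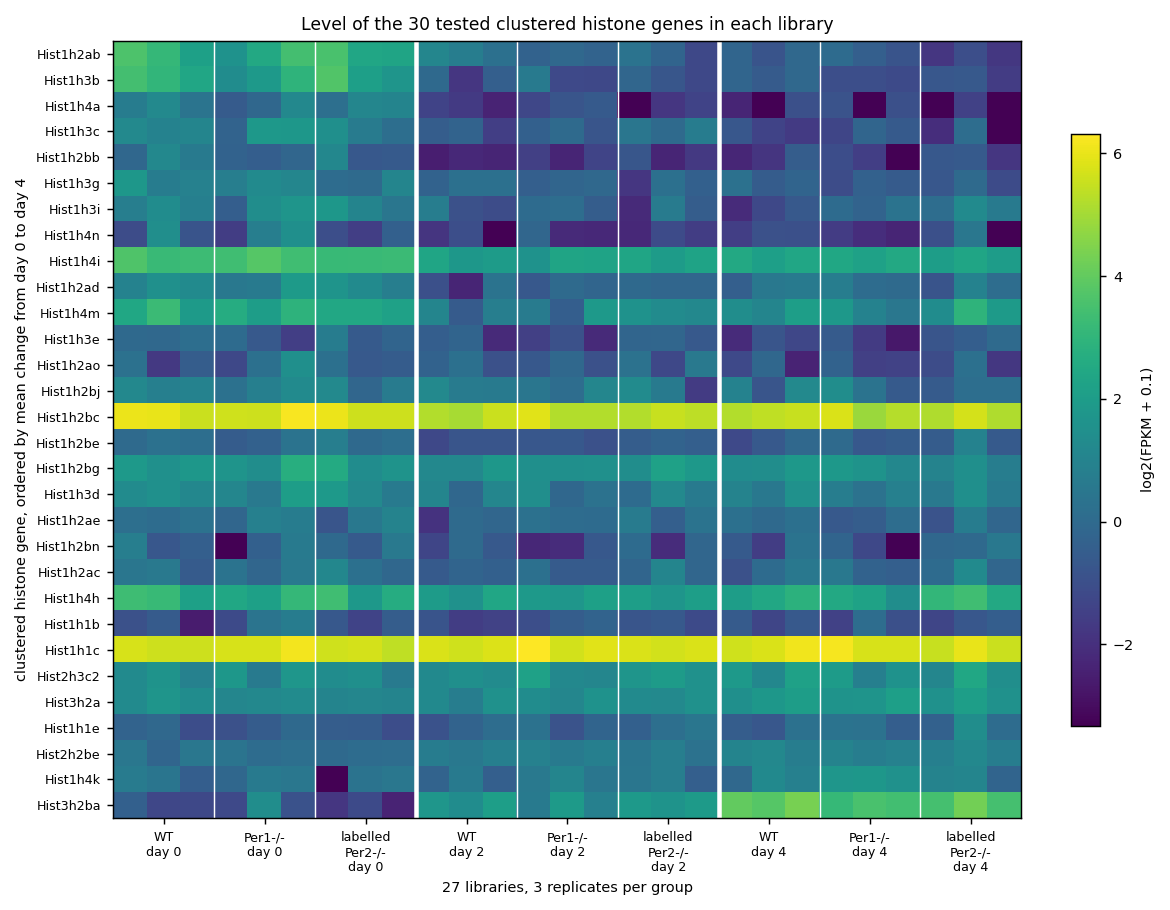
Heat map of the 30 tested clustered histone genes (rows) in 27 libraries (columns, 3 replicates per group), coloured by log2(FPKM + 0.1). Hist1h1c and Hist1h2bc are high in every library, Hist1h2ab and Hist1h3b lose level after day 0, and Hist3h2ba gains level by day 4.

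More members fell than rose after day 0. The test asked for an adjusted p no higher than 0.05 and a log2 fold change of 0.58 or more in size. From day 0 to day 2, 12, 8 and 8 of 30 tested members fell in WT, Per1-/- and the libraries labelled Per2-/-, where 19.7, 18.8 and 16.8% of all tested genes fell. Hist3h2ba alone rose in each of the 3 genotypes, where 20.8, 20.8 and 18.7% of all genes rose. From day 0 to day 4, 9, 9 and 7 members fell in the same order, against 20.9, 20.4 and 18.8% of all genes, and 2, 3 and 4 rose, against 22.9, 22.6 and 21.6%. These falls include members that reached the limit through their day 0 level alone. Without genes below 0.5 FPKM on both later days, a limit chosen after the data were seen that itself removes genes that fell, 10, 7 and 6 of 26 members fell by day 2, against 19, 18.2 and 16.1% of the genes left, and 6, 6 and 6 by day 4, against 20.2, 19.8 and 18.1%, so that the day 4 shares of members were near those of all genes. These shares are a description without a test. The median log2 fold change of the tested members was -0.76, -0.63 and -0.43 by day 2 and -0.51, -0.67 and -0.36 by day 4, while that of all genes lay between -0.02 and 0.00. The member medians include the 4 members that reached the limit through their day 0 level, which favoured a fall. In 7 members all 9 day 2 libraries lay below all 9 of day 0, which held for 21.5% of all genes, and in no member did they lie above (19.7% of genes). The 7 include Hist1h2bb and Hist1h4a, which were tested only because of their day 0 level. On day 4 the libraries of 4 members, Hist1h4a again among them, lay below those of day 0 (22.7% of genes) and of 2 above (19.8%).

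Between days 2 and 4 few members passed the test, as did few of all genes. Hist3h2ba rose in each genotype, against 1.62, 1.38 and 2.32% of all genes. No member fell in WT or Per1-/-, against 1.59 and 1.06% of genes, and Hist1h3c fell in the libraries labelled Per2-/-, against 1.74%. The 9 libraries of day 4 lay below those of day 2 in no member (3.13% of genes). Voom on fragments also gave 0 falls in WT and Per1-/-. With limma, 4, 2 and 7 of 30 members, Hist3h2ba included, had an unadjusted p under 0.05 in either direction. These counts are for WT, Per1-/- and the libraries labelled Per2-/-, against 19.9, 19.98 and 22.6% of all genes.

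Some counts rested on single libraries. Falls in Per1-/- numbered 5 by day 2 without day 0 replicate 3 or without day 2 replicate 3, and 4 by day 4 without day 0 replicate 3. Falls by day 2 in the libraries labelled Per2-/- numbered 5 without day 0 replicate 1 or without day 2 replicate 1, and rises 2 without day 0 replicate 3. Rises by day 4 numbered 2 in the libraries labelled Per2-/- without day 4 replicate 2, and 1 in WT without day 0 replicate 2. When every library was scaled so that its FPKM added up to the same total, the median log2 fold change of all genes after day 0 became 0.25 to 0.41. Under this scaling falls by day 2 numbered 7, 4 and 4 and rises 2, 2 and 4 in WT, Per1-/- and the libraries labelled Per2-/-, and by day 4 falls numbered 7, 6 and 5 and rises 4, 4 and 5.

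**Figure D2:**
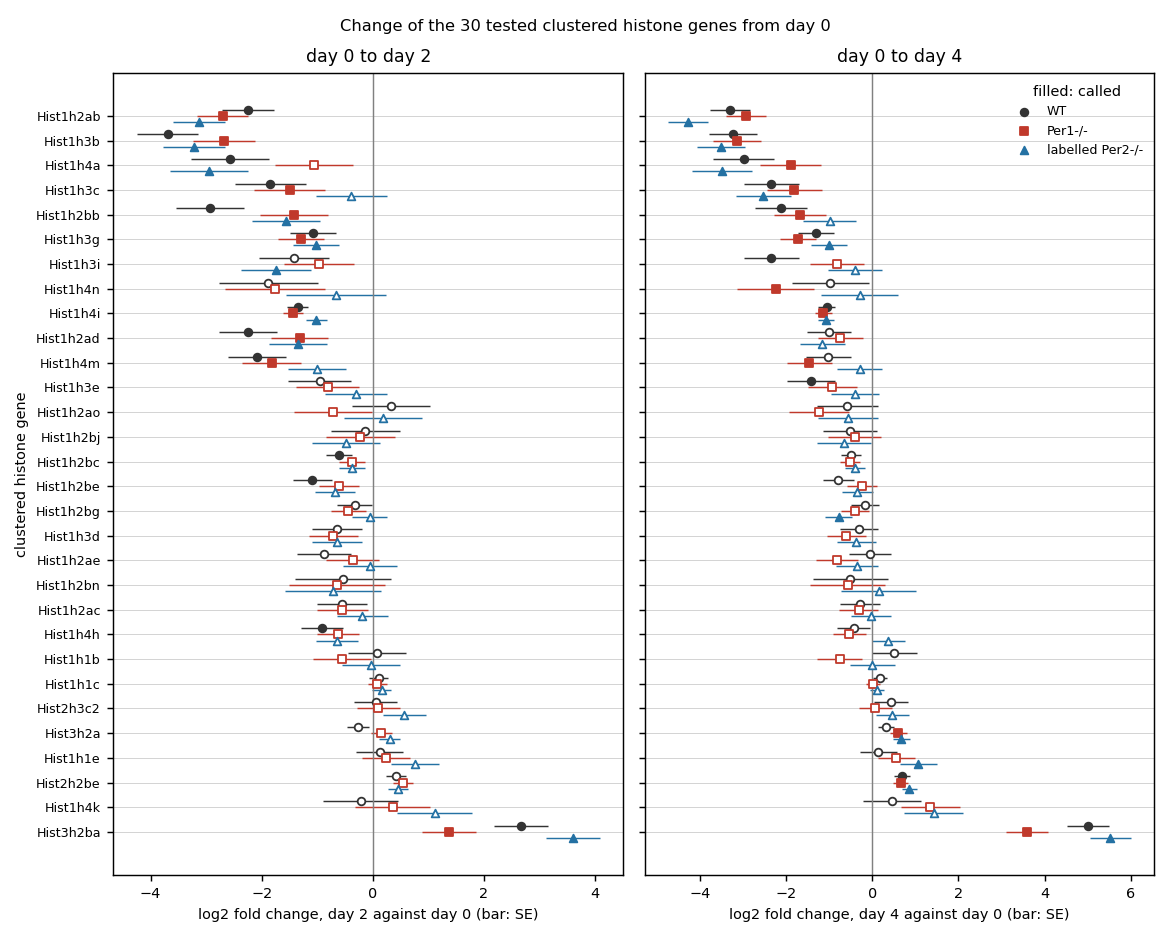
Log2 fold change (x axis) with SE bars of each of the 30 tested clustered histone genes (y axis) from day 0 to day 2 and from day 0 to day 4 in the 3 genotypes, with filled symbols for values that passed the test. Most filled symbols lie left of 0, and Hist3h2ba lies far to the right in all 3 genotypes.

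Hist3h2ba encodes an H2B protein and lies in cluster 3 (ENSMUSG00000056895, chr11:58948920-58949533). It rose at each step in all 3 genotypes. In WT its level was 0.685, 0.315 and 0.325 FPKM in the 3 day 0 libraries, 3.21, 2.45 and 4.11 FPKM on day 2, and 16.1, 13.8 and 20.4 FPKM on day 4. The Per1-/- libraries were at 0.337, 2.54 and 0.441 FPKM, then 1.47, 3.68 and 1.72 FPKM, then 8.63, 11.6 and 10.5 FPKM. In the libraries labelled Per2-/- it was 0.185, 0.346 and 0.0946 FPKM, then 3.62, 3.01 and 3.74 FPKM, then 11, 19.3 and 11.2 FPKM. All 9 day 4 libraries lay above all 9 of day 2, as in 2.01% of all tested genes, and above all 9 of day 0. Days 0 and 2 overlapped, since Per1-/- day 0 replicate 2, with 24 fragments where the other day 0 libraries had 1 to 8, exceeded 3 libraries of day 2.

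By day 4 the log2 fold change of Hist3h2ba was 5.01, 3.59 and 5.53 in WT, Per1-/- and the libraries labelled Per2-/- (SE 0.48, limma adjusted p = 2.00e-08, 2.02e-06 and 6.57e-09). On the linear scale the ratio of mean FPKM was 38, 9.27 and 66.3, from day 0 levels of few fragments. By day 2 it had changed by 2.67, 1.37 and 3.60 (adjusted p = 7.42e-05, 0.019 and 2.45e-06), and the Per1-/- rise was lost without day 0 replicate 3. Between days 2 and 4 it rose by a further 2.34, 2.22 and 1.92 (adjusted p = 0.00864, 0.0132 and 0.0229). In WT that step was called with any one library left out. It was lost without Per1-/- day 2 replicate 1 or 3 or day 4 replicate 2, and without any of the day 2 replicates or day 4 replicate 2 or 3 labelled Per2-/-. Only 4.85% of its 100-base windows were shared with other genes, and its annotated transcript continued 169 bases past the stem-loop, with a poly(A) signal (AATAAA, or in its place ATTAAA) in that stretch.

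Hist3h2a, an H2A gene 5151 bases from Hist3h2ba in the same cluster (ENSMUSG00000078851, chr11:58954685-58956830), had smaller log2 fold changes by day 4. Its level was 2.38, 3.13 and 2.51 FPKM on day 0 and 2.72, 3.37 and 4.05 FPKM on day 4 in WT. In Per1-/- it went from 2.05, 2.15 and 2.4 to 3.03, 3.08 and 4.19 FPKM, and in the libraries labelled Per2-/- from 1.93, 2.05 and 1.95 to 2.86, 4.09 and 2.83 FPKM. The rises in Per1-/- and the libraries labelled Per2-/- passed the test and the WT difference did not (log2 fold change 0.32, 0.61 and 0.67, SE 0.19, adjusted p = 0.156, 0.00971 and 0.00522). The Per1-/- call was lost without day 0 replicate 1 or day 4 replicate 3, and the other without day 4 replicate 2. Trim17 and Gm44313 overlap this gene, and the library kit did not keep strand, so their fragments cannot be told apart from its own.

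Hist2h2be, an H2B gene of cluster 2 (ENSMUSG00000068854, chr3:96221119-96223738), rose by day 4 in all 3 genotypes, by less than Hist3h2ba. Its level was 1.32, 0.793 and 1.33 FPKM in WT on day 0 and 1.92, 2.16 and 1.6 FPKM on day 4. In Per1-/- it went from 1.22, 0.966 and 1.03 to 1.87, 1.59 and 1.79 FPKM, and in the libraries labelled Per2-/- from 0.889, 0.952 and 0.997 to 1.71, 2.17 and 1.58 FPKM. Every day 4 library lay above every day 0 library. The log2 fold change was 0.70, 0.66 and 0.86 (SE 0.18, adjusted p = 0.00229, 0.00355 and 0.000362). The WT call was lost without day 0 replicate 2 (0.47), and all 3 with a pseudocount of 1. No window of this gene was shared with another. Hist1h1e, a linker H1 gene outside the naming rule and singled out after its values were seen, rose by day 4 in the libraries labelled Per2-/- (log2 fold change 1.07 ± 0.43, adjusted p = 0.0365). Its 3 libraries there were at 0.697, 2.57 and 0.974 FPKM, it overlaps Hist1h2be, and the call was lost without replicate 2 of that day.

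**Figure D3:**
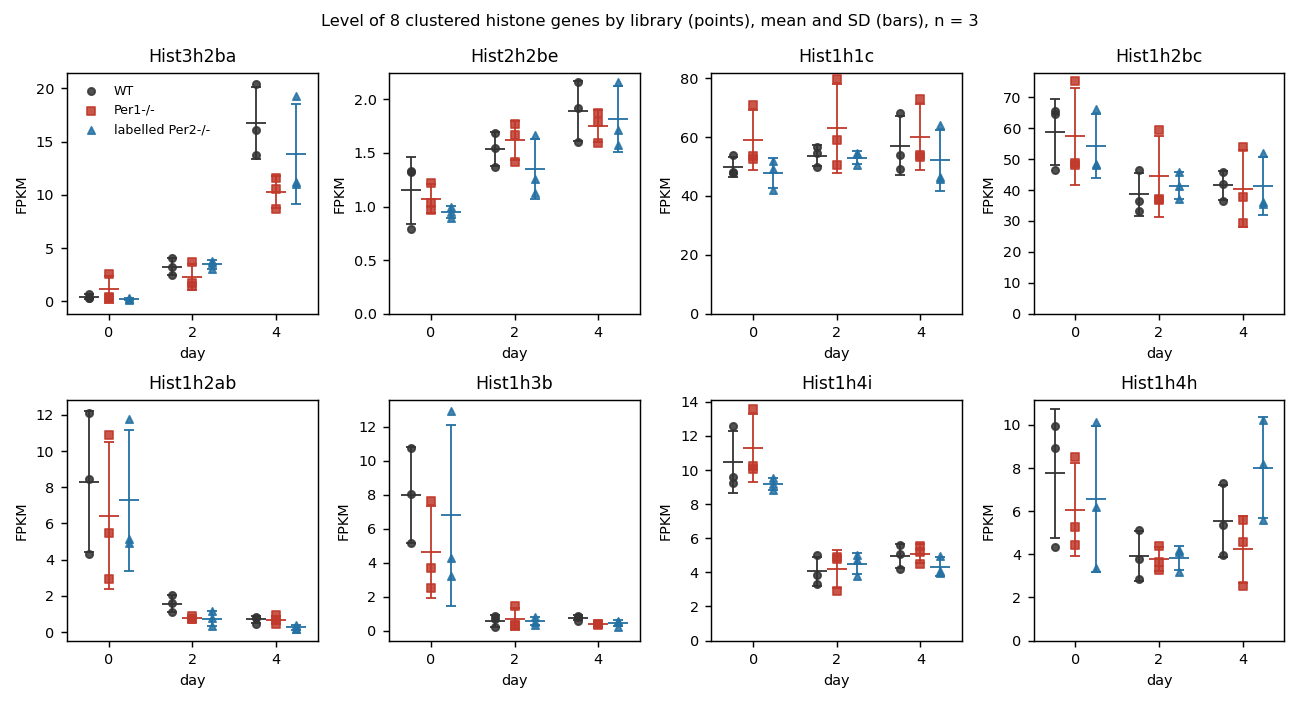
FPKM (y axis, linear) of 8 clustered histone genes in every library by day (x axis) for the 3 genotypes, with the mean and SD of 3 replicates. Hist3h2ba reaches 8.63 to 20.4 FPKM on day 4, Hist1h2ab lies at or below 2.04 FPKM after day 0, and Hist1h1c stays between 42.1 and 79.8 FPKM throughout.

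The largest falls were those of Hist1h2ab and Hist1h3b, neighbours 668 bases apart in cluster 1. Hist1h2ab (H2A; ENSMUSG00000061615, chr13:23751126-23751598) was 12.1, 8.48 and 4.32 FPKM in WT on day 0, 2.04, 1.59 and 1.09 FPKM on day 2, and 0.792, 0.475 and 0.848 FPKM on day 4. The Per1-/- libraries were at 2.95, 5.49 and 10.9 FPKM on day 0 and 0.925, 0.648 and 0.464 FPKM on day 4. In the libraries labelled Per2-/- it was 11.8, 5.16 and 4.91 FPKM on day 0 and 0.19, 0.403 and 0.199 FPKM, from 2 to 4 fragments, on day 4. Every day 0 library lay above every later library, although the day 0 libraries themselves spread from 2.95 to 12.1 FPKM. The log2 fold change was -2.25, -2.70 and -3.13 by day 2 and -3.30, -2.92 and -4.27 by day 4 in WT, Per1-/- and the libraries labelled Per2-/- (SE 0.47, adjusted p on day 4 = 3.47e-06, 1.60e-05 and 1.36e-07).

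Hist1h3b (H3; ENSMUSG00000069267, chr13:23752267-23752886) was 10.8, 8.03 and 5.15 FPKM in WT on day 0, 0.872, 0.187 and 0.664 FPKM on day 2 and 0.777, 0.58 and 0.863 FPKM on day 4. Per1-/- libraries went from 2.5, 3.66 and 7.65 FPKM on day 0 to 0.392, 0.395 and 0.354 FPKM on day 4. In the libraries labelled Per2-/- it went from 12.9, 4.28 and 3.18 to 0.507, 0.538 and 0.227 FPKM. Days 0 and 4 did not overlap. The log2 fold change was -3.70, -2.69 and -3.21 by day 2 and -3.22, -3.14 and -3.51 by day 4 (SE 0.56, adjusted p on day 4 = 3.98e-05, 5.41e-05 and 1.67e-05), and the change between days 2 and 4 did not pass the test in any genotype. Windows shared with other genes made up 52.4% of Hist1h2ab and 56.6% of Hist1h3b, so part of their fragments may belong to other copies, and Gm44484 overlaps Hist1h2ab.

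A pair of further H3 genes fell by day 4 in all 3 genotypes. Hist1h3c (ENSMUSG00000069310, chr13:23744973-23745602) went from 2.25, 1.84 and 1.98 to 0.51, 0.285 and 0.212 FPKM in WT and from 0.738, 3.4 and 3.33 to 0.309, 0.778 and 0.557 FPKM in Per1-/-. In the libraries labelled Per2-/- it was 2.7, 1.52 and 1.01 FPKM on day 0, still 1.28, 0.896 and 1.54 FPKM on day 2, and 0.142, 0.984 and 0 FPKM on day 4. The log2 fold change by day 4 was -2.34, -1.81 and -2.53 (SE 0.64, adjusted p = 0.00329, 0.0186 and 0.00191), and the Per1-/- call was lost without day 0 replicate 2 or 3 or day 4 replicate 1. The fall between days 2 and 4 in the libraries labelled Per2-/- (-2.14, adjusted p = 0.0483) was lost without any of the day 2 replicates or day 4 replicate 1 or 3. Hist1h3g (ENSMUSG00000099517, chr13:23535422-23535951) had means of 2.24 ± 0.99 FPKM (SD, n = 3) in WT on day 0 and 0.82 ± 0.264 FPKM on day 4, with log2 fold changes of -1.30, -1.73 and -1.0 (SE 0.42, adjusted p = 0.010, 0.0012 and 0.0445). Its call in WT was lost without day 0 replicate 1 (-0.98). Its call in the libraries labelled Per2-/- was lost without day 0 replicate 3 (-0.66), without day 4 replicate 1 or 3, and with voom on fragments.

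Among the H4 genes, Hist1h4i and Hist1h4a passed as falls by day 4 in all 3 genotypes, of which Hist1h4a was tested only because of its day 0 level. Hist1h4i (ENSMUSG00000060639, chr13:22040636-22041362) was 12.6, 9.24 and 9.6 FPKM in WT on day 0, 4.99, 3.34 and 3.82 FPKM on day 2 and 5.6, 4.2 and 5.09 FPKM on day 4. Over all genotypes it was 8.83 to 13.6 FPKM on day 0, 2.89 to 5.0 FPKM on day 2 and 3.94 to 5.6 FPKM on day 4, so that day 0 did not overlap with either later day. The log2 fold change was -1.35, -1.44 and -1.02 by day 2 and -1.06, -1.13 and -1.07 by day 4 (SE 0.19, adjusted p on day 4 = 5.08e-05, 2.49e-05 and 4.99e-05). These values came from 42 to 174 fragments per library, with 15.1% of windows shared. Hist1h4a (ENSMUSG00000060093, chr13:23760692-23761230) was 0.575 to 2.24 FPKM on day 0 and 0 to 0.451 FPKM on day 4, where 4 libraries held no fragment and none more than 5. Its fitted log2 fold changes by day 4 were -2.98, -1.89 and -3.48 (SE 0.70, adjusted p = 0.000918, 0.0237 and 0.000229), their size depends on the pseudocount, and the filter favoured a fall from day 0. The Per1-/- call was lost without day 0 replicate 3 or day 4 replicate 2.

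Hist1h4h and Hist1h4m, also H4 genes, gave falls by day 2 and no call between days 2 and 4. Hist1h4h fell in WT from 9.95, 8.95 and 4.35 FPKM to 3.78, 2.83 and 5.15 FPKM by day 2 (log2 fold change -0.92 ± 0.38, adjusted p = 0.0422) and was 3.99, 5.35 and 7.3 FPKM on day 4. By day 4 its log2 fold change was -0.43, -0.53 and 0.38 and passed in no genotype. Hist1h4m fell by day 2 in WT (-2.09, adjusted p = 0.00173) and Per1-/- (-1.82, adjusted p = 0.00508). By day 4 its fall passed in Per1-/- (-1.45 ± 0.52, adjusted p = 0.020), where it was lost without day 0 replicate 3 or day 4 replicate 2 or 3. Of its windows 88.1% were shared with other genes.

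Of the H2B genes other than those that rose, Hist1h2bb fell by day 4 in WT (-2.12, adjusted p = 0.00461) and Per1-/- (-1.68, adjusted p = 0.0208; SE 0.61). It was tested only because of its day 0 level, which favoured a fall. It is outside the naming rule and was singled out after its values were seen, as was Hist1h2ad, an H2A gene that fell by day 2 in all 3 genotypes (-2.24, -1.32 and -1.35, SE 0.52) and by day 4 in none. Hist1h2bg fell by day 4 in the libraries labelled Per2-/-, from 5.79, 2.49 and 3.01 FPKM to 1.89, 2.7 and 1.6 FPKM (-0.78 ± 0.32, adjusted p = 0.0406). That call was lost without day 0 replicate 1 (-0.42), without day 4 replicate 1 or 3, with voom on fragments, and with the replicate number as a block. In all, 5 members fell by day 4 in a single genotype. Beside Hist1h2bg these were Hist1h3e and Hist1h3i in WT and Hist1h4m and Hist1h4n in Per1-/-, with Hist1h3e and Hist1h4n again tested only because of their day 0 level.

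The 2 most abundant members passed the test by day 4 in no genotype. Hist1h1c was 53.8, 48.1 and 47.7 FPKM in WT on day 0 and 49, 54 and 68.3 FPKM on day 4. In Per1-/- it went from 52.7, 53.4 and 70.9 to 72.9, 53.2 and 53.8 FPKM and in the libraries labelled Per2-/- from 49.2, 51.9 and 42.1 to 45.6, 64.1 and 46.5 FPKM. The days overlapped, and the log2 fold changes were 0.18, 0.02 and 0.11 with an SE of 0.17 (adjusted p = 0.351, 0.924 and 0.577). Scaled to equal FPKM totals, the WT value became 0.58 and passed the test. Hist1h2bc went from 65.5, 64.7 and 46.5 to 36.6, 42 and 45.9 FPKM in WT. The Per1-/- libraries went from 48.8, 48 and 75.5 to 54, 29.4 and 37.9 FPKM, and those labelled Per2-/- from 66.3, 48.1 and 48.4 to 35.6, 52.1 and 36 FPKM. Its log2 differences of -0.49, -0.52 and -0.40 (SE 0.24, adjusted p = 0.0728, 0.0612 and 0.145) did not pass by day 4. The WT difference passed by day 2 (-0.60, adjusted p = 0.0318) and, without day 0 replicate 3, also by day 4 (-0.65). The Per1-/- difference passed by day 4 without day 0 replicate 1, day 0 replicate 2 or day 4 replicate 1.

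Hist1h2ac and Hist2h3c2 also passed in no genotype by day 4. Hist1h2ac, an H2A gene, had log2 fold changes of -0.28, -0.32 and -0.03 (SE 0.46). Those of Hist2h3c2, an H3 gene, were 0.44, 0.07 and 0.47 (SE 0.39), with 61.6% of windows shared. Hist1h4k, an H4 gene chosen after its values were seen, had the highest mean log2 fold change over genotypes after Hist3h2ba, 1.08, from values of 0.46, 1.35 and 1.43 (SE 0.68) that did not pass, with 64.3% of windows shared. Scaled to equal FPKM totals, its values in Per1-/- and the libraries labelled Per2-/- became 1.6 and 1.62 and passed.

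Summed over members other than Hist1h1c and Hist1h2bc, the level was 58.1 to 103 FPKM per library on day 0, 35.4 to 48.8 FPKM on day 2 and 48.9 to 92.2 FPKM on day 4. The highest day 0 sum was that of Per1-/- replicate 3 and the highest day 4 sum that of replicate 2 labelled Per2-/-. Per library, H3 members summed to a median of 17.1, 8.92 and 8.09 FPKM on days 0, 2 and 4, and H4 members to 28.1, 13.3 and 16.1 FPKM. H2A members summed to 15.8, 7.93 and 8.32 FPKM. H2B members, Hist1h2bc and Hist3h2ba included, summed to 62.2, 51 and 60.7 FPKM, and H1 members to 53.8, 56.1 and 55.3 FPKM. By day 4, falls in all 3 genotypes numbered 3 of 7 tested H3, 2 of 6 H4, 1 of 6 H2A, 0 of 8 H2B and 0 of 3 H1 genes, or 6 of the 30 in all, against 15.6% of all tested genes. Rises in all 3 numbered 2 of 30, against 17.6%. In at least 1 genotype 12 members fell, against 24.6% of genes, and 4 rose, against 27.2%. The 12 include Hist1h2bb, Hist1h3e, Hist1h4a and Hist1h4n, which were tested only because of their day 0 level, so the filter favoured their falls. Hist1h4a also counts among the H4 falls in all 3 genotypes. Single families are too small for their shares to be read against those of all genes. In bulk RNA, fewer cells expressing these genes and less transcript per cell cannot be told apart.

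The length of the annotated transcripts, which the choice of members did not use, is described next. Of the 17 tested members of at most 700 bases, 10 fell by day 4 in at least 1 genotype, against 21.0% of all tested genes of that length, and 1, Hist3h2ba, rose, against 20.1%. The 10 include Hist1h2bb, Hist1h4a and Hist1h4n, which were tested only because of their day 0 level. Of the 13 longer ones, 2 fell, Hist1h3e among them, against 25.0% of longer genes, and 3 rose, against 27.9%. The median of their mean log2 fold changes was -0.96 and -0.21. In at least 1 genotype, 24.6% of all tested genes fell by day 4 and 27.2% rose. Of the 10 tested members with at most 100 bases after the stem-loop, 6 fell, Hist1h2bb and Hist1h4n among them, and none rose. Their mean changes ran from -3.50 to -0.20. Of the 12 with a longer stretch, 3 fell, Hist1h3e among them, and 3 rose, with mean changes from -1.09 to 4.71. Of the 8 without a match to the stem-loop, 3 fell, Hist1h4a among them, and 1 rose. The members named here were tested only because of their day 0 level. Both limits were set after the values were seen, and the counts are a description without a test. The stretch after the stem-loop was 840 bases in Hist1h1c, 1643 in Hist3h2a and 330 in Hist1h4i, each with a poly(A) signal, against 11 bases in Hist1h2ab, 51 in Hist1h3b and 74 in Hist1h3c without one. Rn7sk, a small nuclear RNA without a poly(A) tail chosen after its values were seen, was 0.904 to 6.56 FPKM on day 0, 1.05 to 6.08 FPKM on day 2 and 4.31 to 20.4 FPKM on day 4. Its part in the member changes was not tested.

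**Figure D4:**
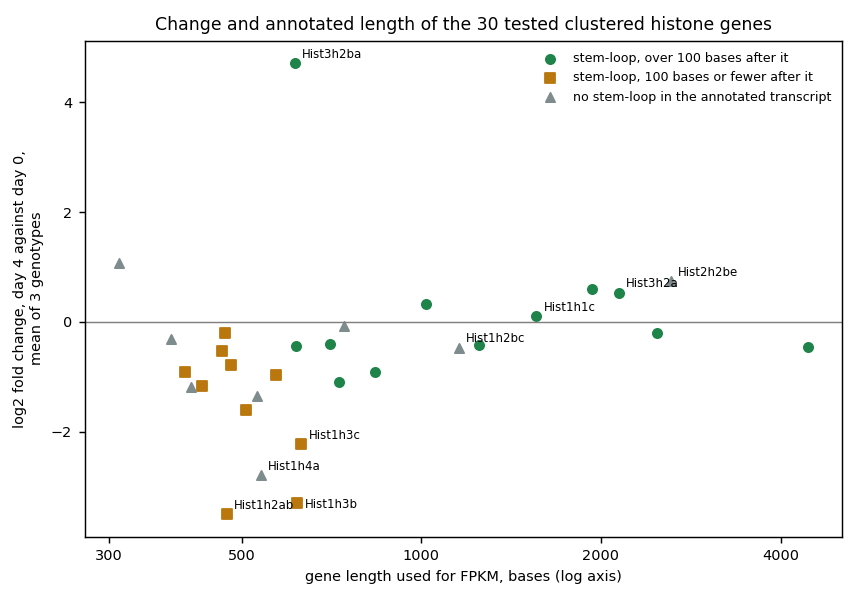
Mean log2 fold change over the 3 genotypes from day 0 to day 4 (y axis) against gene length in bases (x axis, log scale) for the 30 tested clustered histone genes, marked by the stretch annotated after the stem-loop. The 4 lowest points, from -3.50 to -2.22, are shorter than 700 bases, as is Hist3h2ba at 4.71.

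Genes outside the clusters were examined beside the members. Of 11 histone variants listed as replication-independent, 3, 3 and 5 rose and 3, 4 and 3 fell by day 4 in WT, Per1-/- and the libraries labelled Per2-/-. Of all tested genes, 22.9, 22.6 and 21.6% rose and 20.9, 20.4 and 18.8% fell in the same order. The counts of this and the following lists are a description without a test. H1f0, a linker histone abundant in non-dividing cells, rose by 0.93, 0.62 and 0.97 on the log2 scale, and H3f3a, which encodes H3.3, by 0.77, 0.61 and 0.72. H2afv, a variant of the H2A.Z type, rose by 0.84, 0.65 and 0.89. H3f3b, the other H3.3 gene, had values of 0.37, -0.01 and 0.41 and did not reach the fold limit. H2afj fell by 0.98, 1.28 and 1.17, the centromeric H3 gene Cenpa by 1.51, 1.46 and 1.16, and H2afx, which encodes the variant phosphorylated at DNA breaks, by 0.70, 1.05 and 0.73. H2afz, which encodes H2A.Z, had values of -0.55, -0.64 and -0.48 and passed in Per1-/-. H1fx and H2afy2, named after their values were seen, also passed as rises by day 4 in the libraries labelled Per2-/-.

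Of 19 tested genes for histone mRNA synthesis and 3′ end processing, 2, 2 and 1 fell by day 4, against 20.9, 20.4 and 18.8% of all genes. In this list 1 gene, Pou2f1 in Per1-/-, rose, against 22.6% of all genes there. Ccne1, the cyclin E of S phase entry, fell by 1.43, 1.56 and 1.44, and Lsm11, a U7 snRNP protein, by 0.75 in WT and 0.61 in Per1-/-. Slbp ranged from 5.63 to 7.7 FPKM on day 0 and from 4.41 to 5.61 FPKM on day 4, with log2 fold changes of -0.23, -0.57 and -0.32 that stayed under the fold limit. Of 20 histone chaperones, 9, 9 and 8 fell by day 4, beside the same shares of all genes, and 1, Ubn1 in Per1-/-, rose.

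Of 30 S phase genes, 2, 8 and 3 fell by day 2 and 18, 22 and 18 by day 4, with none rising. Of all genes, 19.7, 18.8 and 16.8% fell by day 2 and 20.9, 20.4 and 18.8% by day 4, while 18.7 to 22.9% rose. Rrm2, a subunit of ribonucleotide reductase, fell by 2.16, 2.25 and 1.92 by day 4, and Mcm5, part of the replicative helicase, by 0.72, 0.72 and 0.71. Mki67, a proliferation marker, had log2 fold changes of -0.00, -0.20 and -0.10 by day 2, none of which passed, and fell by 0.87, 0.81 and 0.79 by day 4. The median of the mean changes was -0.35 by day 2 and -0.70 by day 4 for the S phase genes, and -0.65 and -0.46 for the 30 members. These 30 include Hist1h2bb, Hist1h3e, Hist1h4a and Hist1h4n, which were tested only because of their day 0 level. That favoured a fall by either later day. The values for both days share the day 0 libraries, and the difference between the lists was not tested.

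**Figure D5:**
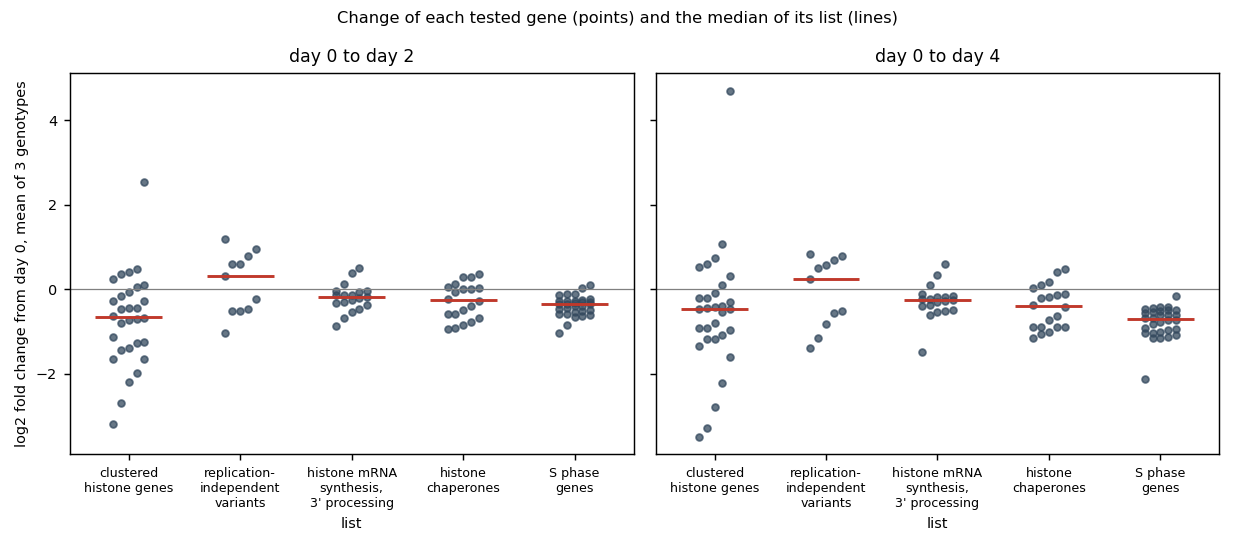
Mean log2 fold change over the 3 genotypes (y axis) of each tested gene (points) of 5 lists (x axis) from day 0 to day 2 and from day 0 to day 4, with the median of each list. The clustered histone genes spread from -3.50 to 4.71 by day 4, the S phase genes from -2.11 to -0.15, and the median of the replication-independent variants is 0.26. Among the clustered genes, Hist1h2bb, Hist1h3e, Hist1h4a and Hist1h4n were tested only because of their day 0 level.

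Markers of cell types moved over the same days. The 22 macrophage markers, none at 0 in all libraries of a day, summed to 146 to 1220 FPKM per library on day 0, 198 to 1403 FPKM on day 2 and 512 to 2376 FPKM on day 4. Of the 21 tested, 16, 19 and 10 rose by day 4 in WT, Per1-/- and the libraries labelled Per2-/-, against 22.9, 22.6 and 21.6% of all genes. The 18 neuron markers, none at 0 in all libraries of a day, summed to 71.3 to 139, 135 to 196 and 155 to 262 FPKM. Of the 14 fibroblast markers, 7 rose and 4 fell by day 4 in each genotype, so their sum hides changes in both directions. Of all genes, 22.9, 22.6 and 21.6% rose and 20.9, 20.4 and 18.8% fell in WT, Per1-/- and the libraries labelled Per2-/-. The part of any of these markers in the member changes was not tested.

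No member passed the test between genotypes. In the 9 comparisons of genotypes within a day, none of 270 member values passed with limma or with voom on fragments, and 11 (4.07%) had an unadjusted p under 0.05, beside 5.71% of the values of all genes. Of all genes, 0.0134, 0.0067 and 0.0268% were called between Per1-/- and WT on days 0, 2 and 4. The shares were 0.0067, 0.0268 and 0.0067% between the libraries labelled Per2-/- and WT, and 0.0201, 0.0737 and 0.556% between Per1-/- and the libraries labelled Per2-/-, or 0.0819% over the 9 comparisons. In the 6 tests of whether the change from day 0 differed between genotypes, none of 180 member values passed with either tool, and 3 (1.67%) had an unadjusted p under 0.05, beside 3.57% of all. With limma no gene at all passed these. The lowest unadjusted p belonged to Hist3h2ba, whose change by day 2 differed between Per1-/- and the libraries labelled Per2-/- by -2.23 ± 0.68 (limma adjusted p = 0.987), with the high Per1-/- day 0 replicate 2 among its libraries. For Hist1h3i, outside the naming rule, the day 4 level was higher in the libraries labelled Per2-/- than in WT by 2.01 ± 0.63 (limma adjusted p = 1.0), with 68.6% of its windows shared. The SE of these genotype differences ran from 0.17 to 0.89 on the log2 scale, so that a missed call does not show equal levels. The study tested counts with DESeq2 at the same limits. On each day it reported more genes that differed between Per1-/- and both other genotypes than were called here. Calls between genotypes were rare here among all genes, so their absence among members is not a trait of the members.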

How the data were processed

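Per the labels and the study's methods, poly(A)-selected, nondirectional paired-end libraries were aligned with HISAT2 2.0.5 to GRCm38 (Ensembl annotation), and fragments were counted per gene with featureCounts 1.5.0-p3. The authors deposited FPKM values computed from these counts and gene length. Multiplied back by length, 100% of the values gave whole fragments (tolerance 0.01), so the depth behind each value is known, and a low fragment number limits precision by counting error alone.

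Groups followed the sample labels. Main tests used limma 3.58.1 (R 4.3.3) on log2(FPKM + 0.1) over the 14932 genes whose mean reached 0.5 FPKM, in 1 model of 9 groups, with Benjamini-Hochberg adjustment per comparison. The filter used the mean over all libraries. Fold changes are on the log2(FPKM + 0.1) scale and understate changes of low genes. A count model was not used because the deposited unit is FPKM, and voom on recovered fragments was an alternative. The fit was tested on simulated data. Tables were made with Python 3.11.15 and pandas 2.3.3. The labels call the replicates biological and do not say whether they were separate MEF preparations, so p-values measure the spread between these samples.

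Named members were those called in 1 direction by day 4 in all 3 genotypes, the 10 with the highest mean, those called between genotypes, the 3 of at least 1 FPKM with change nearest 0, and those under 3 fragments in every library. Other genes were named if they belonged to the variant or processing lists and were called in at least 2 genotypes, with a few fixed markers. Members and lists were chosen with earlier results of these data known. Shared 100-base windows and stem-loops were read from GENCODE M21 transcripts, promoters from RefSeq.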

Additional observations from a re-analysis of the deposited data

How the results depend on the processing

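Leaving out genes below 0.5 FPKM on both later days, an alternative chosen after seeing the data, lowered falls by day 4 from 9, 9 and 7 to 6, 6 and 6. Counts of called members kept within 1.5 times the main count with a minimum of 1 FPKM and with voom on fragments. The minimum of 1 FPKM tested 21 members, without Hist1h2bb, Hist1h3e, Hist1h4a and Hist1h4n, whose falls could not be called there. A pseudocount of 1 gave 1 rise by day 4 in WT and 1 in the libraries labelled Per2-/-, and 0 falls between days 2 and 4 in the latter, and a pseudocount of 0.01 gave 2 rises by day 2 in Per1-/-. Without a filter (60 members tested) there were 2 rises by day 2 in WT, 2 rises and 4 falls in the libraries labelled Per2-/-, and 0 falls there between days 2 and 4. Without a minimum fold, rises by day 2 numbered 2 in Per1-/- and 2 in the libraries labelled Per2-/-. Fitting only the groups compared gave 0 rises by day 2 and 2 between days 2 and 4 in Per1-/-, and 0 falls between days 2 and 4 in the libraries labelled Per2-/-. Scaling to equal FPKM totals gave 2, 2 and 4 rises and 7, 4 and 4 falls by day 2 in WT, Per1-/- and the libraries labelled Per2-/-, and 4 rises by day 4 in WT, with a shift of all genes by 0.41, 0.38 and 0.31 by day 2. The cause was not tested. Leaving out each library in turn gave, by day 2, 1 rise and 9 to 12 falls in WT, 0 to 1 and 5 to 9 in Per1-/-, and 1 to 2 and 5 to 8 in the libraries labelled Per2-/-. By day 4 it gave 1 to 2 rises and 7 to 9 falls, 2 to 3 and 4 to 12, and 2 to 5 and 5 to 9 in the same order. Between days 2 and 4 it gave 1 rise in WT, 0 to 1 in Per1-/-, and 0 to 1 rises and 0 to 1 falls in the libraries labelled Per2-/-. No genotype or interaction call appeared under any of these alternatives that could give one, and no called value of a named member changed sign. Samples were treated as unpaired, since not every same-numbered pair correlated above 0.1, and a pairing across days was not excluded. Within a genotype 14 of 27 same-numbered pairs correlated above 0.1 and 26 of 27 libraries correlated best with their own number, a hint from the data only, and within a day 3 of 27 pairs and 6 of 27 libraries did. With the replicate number as a block, falls numbered 11, 8 and 8 by day 2 and 9, 9 and 6 by day 4, and rises 1, 1 and 1, then 2, 3 and 4, and the block removed 1 named call, that of Hist1h2bg. Depth limits members with few fragments, such as Hist1h4a.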
